A study of Mus musculus with 13 samples.

Results

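The genes described here are 47 genes of motile cilia, the beating organelles of ciliated airway cells, taken by gene symbol from a fixed list of regulators and structural parts of the cilium. All 47 were among the 20270 protein-coding genes of the deposited count and TPM tables (TPM is transcript abundance corrected for transcript length and library size), and all 47 passed the filter on low counts that left 15315 genes to test. RNA was sequenced from the lower right lung lobe of C57BL/6J mice as 13 libraries in 3 groups. The Control group (n = 4) was wildtype and, by the study's methods, received the saline vehicle. The WT bleomycin group (n = 5) was wildtype, and the CB1R KO bleomycin group (n = 4) carried a germline deletion of Cnr1, the gene of the cannabinoid receptor CB1R. Both bleomycin groups were given 1 U per kg of bleomycin, a drug that causes lung injury and fibrosis, once by oropharyngeal aspiration, and their lungs were collected on day 14. The wildtype mice were male and obtained at 13 weeks of age, and the age of the CB1R KO mice was not given separately. Undosed CB1R KO lungs were not analysed here, so a comparison of CB1R KO bleomycin with Control joins a genotype and a treatment. The genotype rests on the labels, since gene-level values of Cnr1 do not show whether reads came from the deleted stretch.

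Multiciliated cells line the conducting airways beside secretory club and goblet cells, and their beating cilia move mucus out of the lung. Early in their differentiation Mcidas acts with E2F factors to switch on the amplification of centrioles, and Foxj1 and RFX factors switch on the genes of the axoneme. The axoneme is a ring of doublet microtubules around a central pair, moved by outer and inner dynein arms and regulated by nexin links, radial spokes and the central apparatus.

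Libraries are named by the numbers in their labels and are always listed in the order 3, 21, 24 and 26 for Control, 4, 2, 5, 4-B2 and 7 for WT bleomycin, and 8, 9, 10 and 11 for CB1R KO bleomycin. The libraries held 14615904 to 16662580 estimated counts, except CB1R KO 11 with 53463884. Markers of ciliated cells were present in the Control lungs, with Foxj1 at 55.9 ± 7.68 TPM (SD, n = 4), Ccdc153 at 118 ± 12.04 TPM and Tmem212 at 59.1 ± 4.40 TPM. Library WT 4-B2 stood apart from the other WT bleomycin libraries in these genes. Its median difference from the Control mean over the 47 genes, in log2 CPM (counts scaled to library size), was 0.10, whereas the other 4 WT libraries lay between -0.45 and -0.25. The CB1R KO libraries lay between -0.69, in CB1R KO 11, and -0.23. The same measure over 16 genes of airway secretory cells was 0.11 in WT 4-B2 and -0.47 to -0.15 in the other WT libraries. The titles of Control 26, WT 4-B2 and WT 7 are written with capitals and all others in lower case, and what this marks is not given. The title of WT 4-B2 repeats the number of WT 4 with the suffix B2, and whether that marks another batch or a repeat of the same animal is not given, so p-values measure only the spread between these libraries. In bulk tissue, fewer ciliated cells, less RNA per ciliated cell and a larger share of RNA from other cells cannot be told apart.

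At day 14 after bleomycin, 40 of the 47 motile cilia genes had a log2 fold change below 0 in wildtype lungs against Control lungs. Of the 15315 genes tested, 7774 were below 0 in this comparison. Mcidas and Ccno, which act early in multiciliated cell differentiation, rose. Of the 47 genes, 14 fell and 2 rose at an adjusted p under 0.05, by the quasi-likelihood test of edgeR and Benjamini-Hochberg adjustment over all genes. Over all genes tested, 23.9% were called lower and 25.0% higher in this comparison. The median log2 fold change of the members was -0.27, against -0.01 over all genes. Without WT 4-B2, 21 members were called lower and 2 higher, and the median was -0.34. Without WT 4 instead, 12 members were called and the median was -0.26. Among the libraries with titles in lower case, 16 members were called and the median was -0.34. Over all genes, 7492 were called with every library, 6951 without WT 4-B2 and 7154 without WT 4. Among the libraries with titles in lower case, 5701 of all genes were called. The 14 that fell ranged from Cfap100, Dnah2, Tekt1 and Cfap46, at log2 fold changes of -0.36 to -0.34, to Tppp3 at -1.21. By structure, 5 of 8 genes of the central apparatus were called lower, and none of the 5 outer dynein arm genes and none of the 3 radial spoke head genes was. These sets are small, and a difference between structures was not tested. The spoke head gene Rsph4a changed about as much as Cfap100 without passing edgeR's test (log2 fold change -0.36, SE 0.15, adjusted p = 0.063).

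**Figure D1:**
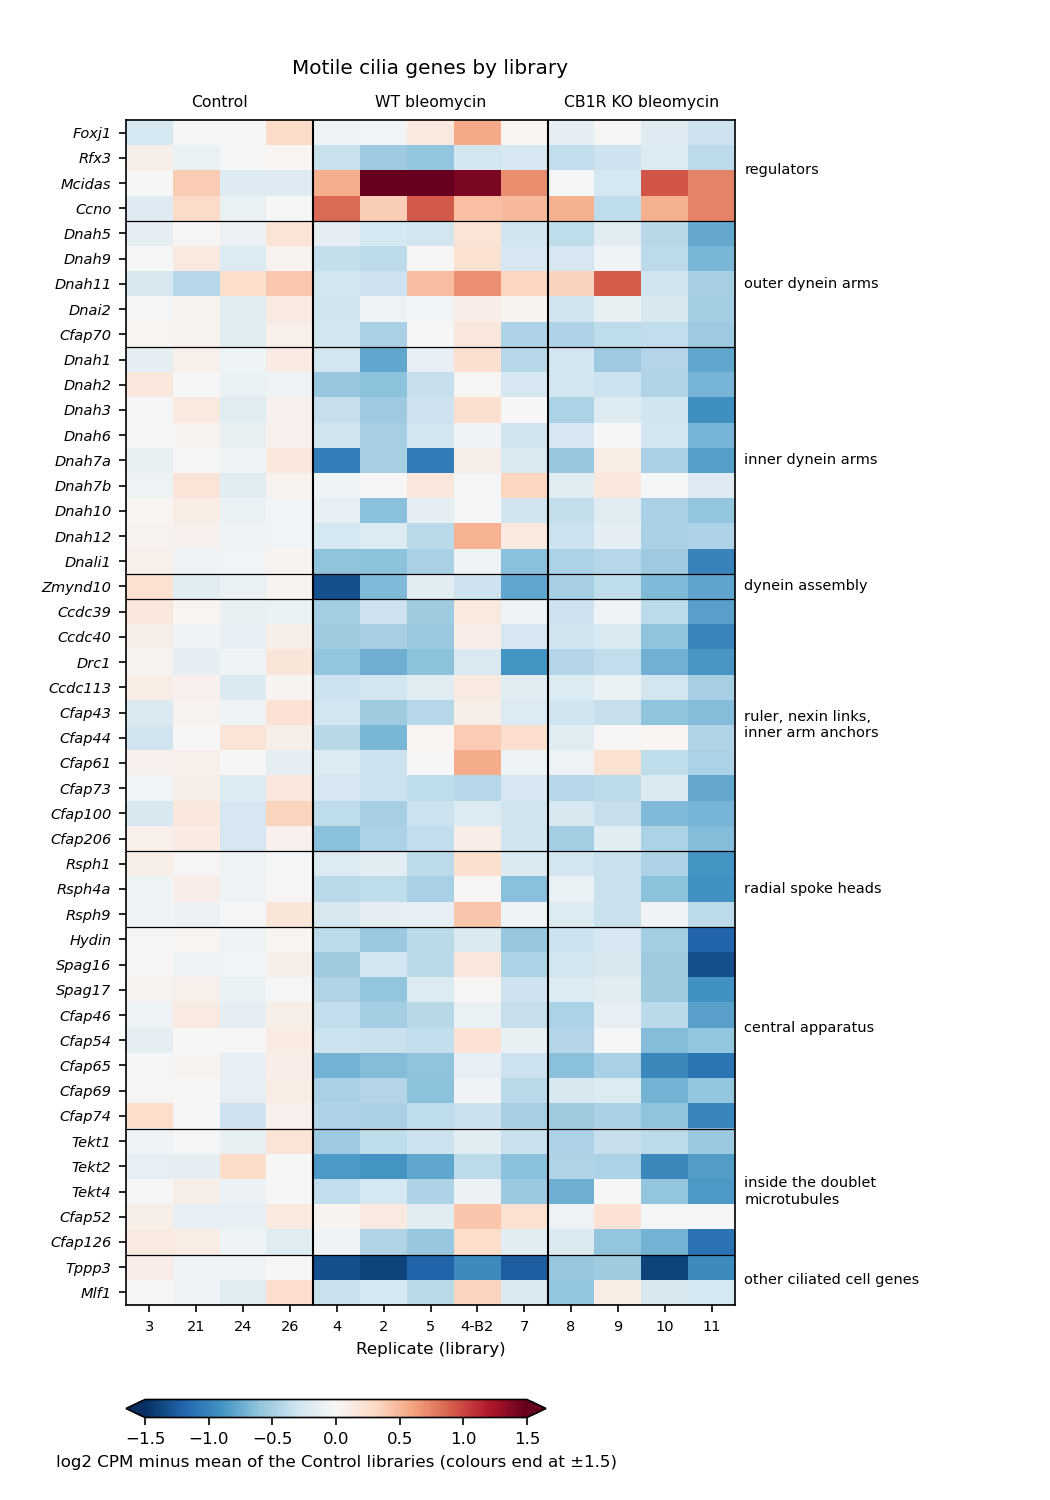
Each row is a motile cilia gene and each column a library, coloured by log2 CPM minus the mean of the 4 Control libraries, with blue for lower and red for higher and colours ending at ±1.5. Most rows are blue in 4 of the 5 WT bleomycin libraries and in the 4 CB1R KO bleomycin libraries, WT 4-B2 is the paler column among the WT libraries, and Mcidas and Ccno are red across the WT libraries.

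The regulators did not move together. Foxj1, the forkhead factor that switches on axoneme genes, was at 47.3, 54.3, 55.9 and 65.9 TPM in Control, 55.8, 56.9, 62.2, 81.0 and 56.9 TPM in WT bleomycin and 53.9, 58.9, 51.3 and 46.7 TPM in CB1R KO bleomycin libraries. The 3 groups overlapped, and the difference of WT bleomycin from Control did not pass the test (log2 fold change 0.13, SE 0.13, adjusted p = 0.439). Rfx3, an RFX factor that acts with Foxj1, was at 2.98, 2.50, 2.62 and 2.64 TPM in Control, 2.37, 1.90, 1.90, 2.13 and 2.29 TPM in WT bleomycin and 3.97, 2.33, 2.40 and 2.31 TPM in CB1R KO bleomycin libraries. All 5 WT libraries and 3 of the 4 CB1R KO libraries lay below the Control range, while CB1R KO 8 was the highest of all in TPM. On the scale of counts, CB1R KO 8 was not high: Rfx3 was at 17.9, 15.7, 16.6 and 17.3 CPM in Control, 13.4, 11.5, 11.1, 13.9 and 14.1 CPM in WT and 13.1, 13.6, 14.6 and 12.8 CPM in CB1R KO libraries, and neither bleomycin group overlapped with Control. Rfx3 fell in the test of counts in both (log2 fold change -0.40, SE 0.09, adjusted p = 0.00293 in WT and log2 fold change -0.32, SE 0.10, adjusted p = 0.0201 in CB1R KO), but in limma on log2(TPM + 1) neither call held, and the CB1R KO change was 0.01.

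Mcidas, a coregulator that acts early in the multiciliated programme, was the member with the largest change. It was at 0.367, 0.464, 0.305 and 0.286 TPM in Control, 0.540, 1.58, 1.25, 1.01 and 0.599 TPM in WT bleomycin and 0.366, 0.296, 0.758 and 0.637 TPM in CB1R KO bleomycin libraries. All 5 WT libraries were above the Control range, and of the CB1R KO libraries 2 lay within the Control range and 2 above it. The rise in WT bleomycin (log2 fold change 1.49, SE 0.39, adjusted p = 0.00596) rested on low counts, 7.13 to 12.1 in Control libraries and 12.5 to 37.8 in WT libraries. It was called in all 24 alternatives in which Mcidas was tested, with fitted changes from 0.53, in limma on log2(TPM + 1), to 1.66, without Control 21. Ccno, a cyclin-like protein needed for centriole amplification, which is described here because it was the other member called higher and was chosen after its values were seen, was at 1.47, 2.06, 1.54 and 1.63 TPM in Control, 3.26, 2.30, 3.25, 2.30 and 2.40 TPM in WT bleomycin and 2.62, 1.33, 2.57 and 2.94 TPM in CB1R KO bleomycin libraries. The WT range lay above the Control range, and CB1R KO 9 was below every other library. Its rise in WT bleomycin (log2 fold change 0.65, SE 0.24, adjusted p = 0.0365) was called in 19 of 25 alternatives, with adjusted p between 0.0127 and 0.0881.

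**Figure D2:**
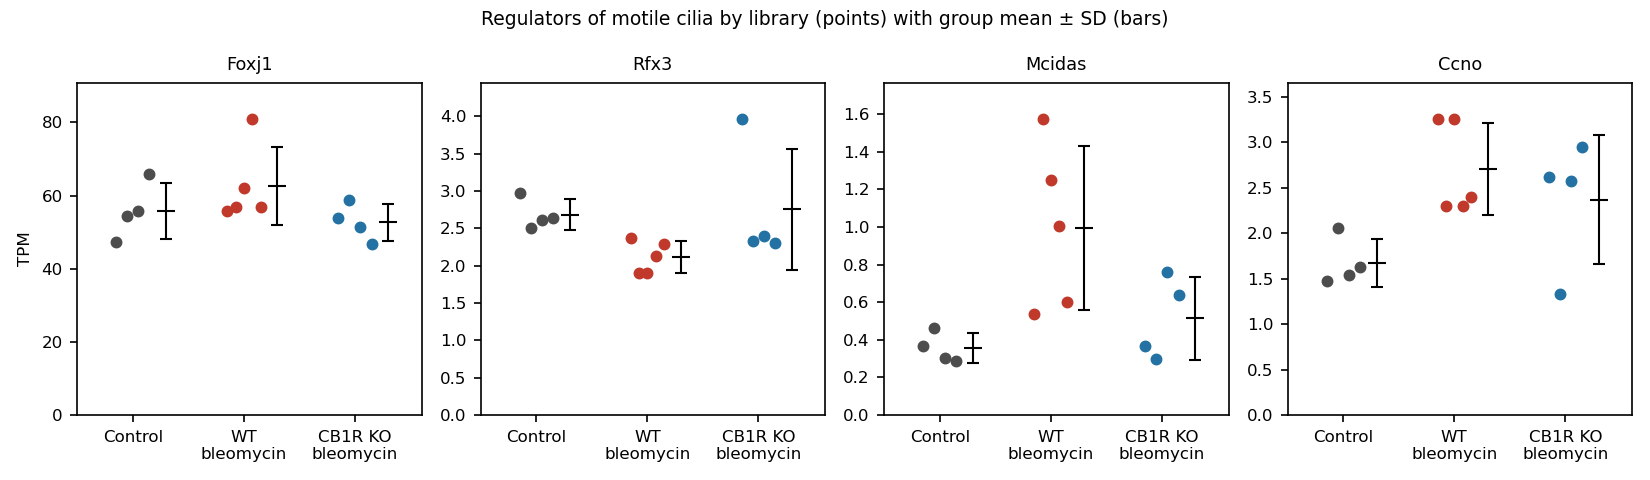
TPM of Foxj1, Rfx3, Mcidas and Ccno in each library (points) for Control, WT bleomycin and CB1R KO bleomycin, with the group mean and SD beside the points as bars. Mcidas and Ccno have all 5 WT bleomycin points above the 4 Control points, Foxj1 overlaps between groups, and Rfx3 has 1 CB1R KO point, library 8, far above the others.

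Mcidas and Ccno are neighbours on mouse chromosome 13, beside Cdc20b, and their promoters are shown with those of Tekt2 and Zmynd10, members of the axoneme and of dynein assembly that fell. The sequences are the RefSeq promoter windows of assembly GRCm38.p6, 250 bases before to 50 bases after the start, printed 5′ to 3′ on the gene's strand. The windows are chr13:112993618-112993917, plus strand, for Mcidas, chr13:112987552-112987851, plus strand, for Ccno, chr4:126325597-126325896, minus strand, for 1 of 3 listed starts of Tekt2, and chr9:107547054-107547353, plus strand, for Zmynd10. Capitals mark the core letters of the motif that RFX factors bind, GTTGCC, or the same letters on the other strand, GGCAAC.
Mcidas: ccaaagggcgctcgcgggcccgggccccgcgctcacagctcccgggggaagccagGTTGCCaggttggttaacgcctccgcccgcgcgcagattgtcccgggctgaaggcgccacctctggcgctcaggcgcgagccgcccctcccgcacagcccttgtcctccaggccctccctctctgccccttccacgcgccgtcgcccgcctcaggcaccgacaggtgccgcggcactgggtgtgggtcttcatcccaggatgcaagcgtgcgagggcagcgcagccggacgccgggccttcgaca
Ccno: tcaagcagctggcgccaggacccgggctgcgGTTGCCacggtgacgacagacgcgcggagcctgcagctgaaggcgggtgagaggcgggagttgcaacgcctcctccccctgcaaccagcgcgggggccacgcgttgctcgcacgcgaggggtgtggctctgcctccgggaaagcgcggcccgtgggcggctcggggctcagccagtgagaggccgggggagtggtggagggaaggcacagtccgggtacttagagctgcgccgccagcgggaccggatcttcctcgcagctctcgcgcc
Tekt2: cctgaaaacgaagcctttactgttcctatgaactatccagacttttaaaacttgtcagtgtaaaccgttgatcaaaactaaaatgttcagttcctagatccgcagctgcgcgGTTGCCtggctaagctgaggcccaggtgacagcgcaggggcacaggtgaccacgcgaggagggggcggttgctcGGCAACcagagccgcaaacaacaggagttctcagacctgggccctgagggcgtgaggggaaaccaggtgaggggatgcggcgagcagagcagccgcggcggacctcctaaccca
Zmynd10: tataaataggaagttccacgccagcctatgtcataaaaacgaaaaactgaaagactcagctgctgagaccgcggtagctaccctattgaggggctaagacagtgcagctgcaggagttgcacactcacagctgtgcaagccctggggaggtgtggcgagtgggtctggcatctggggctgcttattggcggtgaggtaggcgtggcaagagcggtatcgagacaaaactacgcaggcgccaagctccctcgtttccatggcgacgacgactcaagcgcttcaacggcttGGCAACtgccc
A promoter window was found for 38 of the 47 members, and Foxj1, Dnai2, Dnah3, Cfap73, Rsph1, Rsph4a, Cfap54, Cfap65 and Tppp3 had none. The RFX core GTTGCC, searched on both strands, stood in 19 of the 38 and in 14.1% of the 27025 genes of the promoter table. The forkhead letters TGTTTAC stood in 2 of the 38 (5.26%), Cfap43 and Mlf1, and in 4.05% of all. A strict paired form, exactly GTTNCC and then GGNAAC with 0 to 3 bases between, stood in 0 of the 38 and in 0.936% of all. Looser pairs, such as gttgctcGGCAAC in the Tekt2 window above, were not counted. The 0 therefore does not show that the members lack a paired RFX site. Among 85 other motile cilia genes with a promoter window, 8 held the strict pair (9.41%), 39 the RFX core (45.9%) and 9 the forkhead letters (10.6%). The 4 promoters printed were chosen after the fold changes were seen. They hold 1, 1, 2 and 1 cores, with 0 and 2 at the other starts of Tekt2. The windows of Dnali1, Dnah2 and Cfap69, which also fell in counts, hold none. A link between the letters and the direction of change was not tested. A match describes these letters and not binding.

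Outer dynein arms give the cilium its beat frequency, and none of their 5 genes was called in WT bleomycin against Control. Of all genes, 23.9% were called lower and 25.0% higher, so 0 of 5 says little. None of the 5 had an unadjusted p under 0.05, and their median log2 fold change was -0.14. Dnah9, an outer arm heavy chain, was at 5.70, 6.27, 4.69 and 5.80 TPM in Control, 3.79, 4.70, 5.50, 6.24 and 4.59 TPM in WT bleomycin and 4.90, 5.26, 4.03 and 3.26 TPM in CB1R KO bleomycin libraries. Dnai2, an intermediate chain of the same arm, was at 9.42, 9.70, 8.40 and 9.99 TPM in Control, 8.03, 9.39, 9.20, 9.89 and 9.76 TPM in WT bleomycin and 8.13, 9.07, 8.37 and 6.83 TPM in CB1R KO bleomycin. For both genes the WT libraries overlapped with Control, at log2 fold changes of -0.14 (SE 0.14) and -0.05 (SE 0.10), and CB1R KO 11 was the lowest of all 13 libraries. Dnah11, a heavy chain, had the lowest level of the 47 genes, with a mean of 0.261 TPM in Control.

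Inner dynein arms shape the bend of the cilium, and 2 of their 9 genes fell in WT bleomycin, a share near the 23.9% of all genes called lower. They were Dnali1 and Dnah2 (log2 fold change -0.34, SE 0.13). Dnali1, the light intermediate chain, was at 18.9, 16.5, 17.1 and 17.6 TPM in Control, 12.2, 11.97, 12.66, 16.4 and 11.4 TPM in WT bleomycin and 13.5, 13.7, 12.6 and 9.04 TPM in CB1R KO bleomycin libraries. WT 4-B2 was next to the Control range and the other 4 WT libraries were well below it (log2 fold change -0.47, SE 0.13, adjusted p = 0.00916). Dnah3, a heavy chain, was at 6.58, 6.73, 6.15 and 6.77 TPM in Control, 5.07, 4.77, 4.41, 7.02 and 6.60 TPM in WT bleomycin and 4.48, 5.97, 5.46 and 3.44 TPM in CB1R KO bleomycin, with WT libraries on both sides of the Control range and every CB1R KO library below it. Dnah12, another heavy chain, was at 3.402, 3.33, 3.02 and 3.02 TPM in Control, 2.82, 2.90, 2.45, 4.51 and 3.55 TPM in WT bleomycin and 2.72, 3.04, 2.40 and 2.44 TPM in CB1R KO bleomycin, with overlap between all groups in TPM. In CPM every CB1R KO library lay below the Control range, with CB1R KO 9 nearest at 24.6 and Control 24 lowest at 25.6. The log2 fold change of Dnah12 in WT bleomycin was -0.01 (SE 0.15). Values of Dnah7a and Dnah7b are uncertain, because 56.5% and 63.5% of the 31-base stretches of their transcripts occur in other genes, mostly in each other and in Dnah7c. Zmynd10, which is needed to assemble dynein arms in the cytoplasm, was at 14.5, 10.8, 11.3 and 12.1 TPM in Control, 5.08, 8.01, 10.9, 9.60 and 7.09 TPM in WT bleomycin and 9.15, 9.73, 7.99 and 7.17 TPM in CB1R KO bleomycin libraries. WT 5 reached the lowest Control library in TPM and the other 4 WT libraries lay below, and Zmynd10 fell in the test (log2 fold change -0.61, SE 0.19, adjusted p = 0.0147).

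The ruler proteins, nexin links and anchors space the dynein arms along the doublets, and 2 of their 10 genes fell in WT bleomycin, again near the 23.9% of all genes. These were Drc1, the scaffold of the nexin-dynein regulatory complex (log2 fold change -0.61, SE 0.14, adjusted p = 0.00208), and Cfap100, which anchors an inner arm. Cfap100 was at 11.8, 16.8, 15.6 and 20.6 TPM in Control, 16.6, 12.6, 15.1, 12.4 and 15.5 TPM in WT bleomycin and 14.5, 14.2, 9.91 and 10.8 TPM in CB1R KO bleomycin libraries. Its groups overlapped, with Control 3 below every WT library in TPM, and its call in WT bleomycin (log2 fold change -0.36, SE 0.14, adjusted p = 0.0416) held in 16 of 25 alternatives. Ccdc113, which lies between radial spoke and nexin link, was at 17.0, 16.1, 13.3 and 15.4 TPM in Control, 13.03, 13.3, 13.7, 16.6 and 13.8 TPM in WT bleomycin and 14.3, 15.0, 13.4 and 11.0 TPM in CB1R KO bleomycin libraries, and did not pass the test in any comparison. Cfap61, at the base of a radial spoke, was at 3.62, 9.18, 3.32 and 5.65 TPM in Control, 3.53, 3.01, 4.97, 4.95 and 10.3 TPM in WT bleomycin and 5.64, 4.73, 2.90 and 5.25 TPM in CB1R KO bleomycin. The high TPM of Control 21 and WT 7 had no counterpart in CPM, where Control libraries lay at 8.14, 8.17, 7.81 and 7.02 and WT libraries at 6.71, 6.18, 7.81, 11.5 and 7.34, and the highest library was WT 4-B2. The counts of Ccdc39, a ruler protein, are uncertain, since 31.5% of its 31-base stretches also occur in Ttc14.

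Radial spokes carry signals from the central pair to the dynein arms, and none of the 3 spoke head genes was called in WT bleomycin in edgeR's test, with 1 lower at an unadjusted p under 0.05. Beside 23.9% of all genes called lower and 25.0% higher, 0 of 3 says little. Rsph1 was at 39.3, 36.3, 34.3 and 34.5 TPM in Control, 33.2, 33.9, 27.5, 41.8 and 31.7 TPM in WT bleomycin and 31.8, 30.1, 27.4 and 19.7 TPM in CB1R KO bleomycin libraries. Of the WT libraries 4 lay below the Control range and WT 4-B2 above it (log2 fold change -0.13, SE 0.13, adjusted p = 0.427), and all 4 CB1R KO libraries lay below (log2 fold change -0.49, SE 0.14, adjusted p = 0.0151). Rsph9 was at 21.2, 21.6, 21.2 and 24.6 TPM in Control, 19.9, 20.3, 20.2, 27.1 and 22.02 TPM in WT bleomycin and 20.6, 18.2, 21.8 and 16.3 TPM in CB1R KO bleomycin and overlapped between all groups.

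The central apparatus, the microtubule pair and its projections, had 5 of its 8 genes called lower in WT bleomycin. That share, 62.5%, stood beside 23.9% of all genes. Hydin, Cfap46, Cfap65, Cfap69 and Cfap74 fell, and Spag16, Spag17 and Cfap54 did not pass, with a median log2 fold change of -0.37 over the 8 genes. Of 25 alternatives, Cfap65 was called in 25, Cfap74 in 24, Cfap69 in 23, Hydin in 17 and Cfap46 in 16. Cfap65 was at 21.1, 21.2, 19.1 and 21.6 TPM in Control, 13.4, 13.9, 13.9, 18.8 and 16.7 TPM in WT bleomycin and 14.4, 15.5, 11.1 and 10.2 TPM in CB1R KO bleomycin libraries. In TPM every bleomycin library was below every Control library, with WT 4-B2 nearest. In CPM WT 4-B2, at 75.58, reached the lowest Control library, Control 24 at 75.56, and the other bleomycin libraries lay below. Cfap65 fell in the test of counts (log2 fold change -0.47, SE 0.13, adjusted p = 0.0105 in WT). Cfap69 differed between the scales, at 23.7, 23.3, 21.4 and 25.3 CPM in Control, 16.6, 17.2, 15.2, 22.4 and 17.6 CPM in WT and 19.7, 20.3, 14.2 and 15.6 CPM in CB1R KO libraries. In TPM it was at 7.96, 9.07, 7.85 and 11.8 TPM in Control, 10.1, 10.3, 8.27, 10.0 and 9.08 TPM in WT bleomycin and 8.41, 12.2, 8.97 and 13.5 TPM in CB1R KO bleomycin, with overlapping groups. Cfap69 fell in counts (log2 fold change -0.39, SE 0.12, adjusted p = 0.0174 in WT) and its change was 0.07 in limma on log2(TPM + 1), so its direction depends on the unit.

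Inside the doublet microtubules, tektins and other inner proteins stiffen the wall, and Tekt1 (log2 fold change -0.35, SE 0.10) and Tekt2 fell among the 5 genes. Tekt2 was at 14.6, 13.9, 21.3 and 17.8 TPM in Control, 8.53, 8.75, 12.1, 13.04 and 8.56 TPM in WT bleomycin and 11.8, 13.6, 8.18 and 9.37 TPM in CB1R KO bleomycin libraries. No bleomycin library reached the Control range, WT 4-B2 included, and the fall in WT bleomycin (log2 fold change -0.72, SE 0.15, adjusted p = 0.00113) was called in all 25 alternatives. Cfap126, at the doublet wall, was at 26.5, 25.6, 24.9 and 21.5 TPM in Control, 26.7, 21.2, 18.6, 30.1 and 24.7 TPM in WT bleomycin and 23.3, 17.2, 18.2 and 11.96 TPM in CB1R KO bleomycin. In WT bleomycin it overlapped with Control on both sides (log2 fold change -0.18, SE 0.18, adjusted p = 0.454), and 3 of the 4 CB1R KO libraries lay below both other groups.

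Tppp3, a tubulin polymerisation protein used as a ciliated cell marker, had the highest level of the 47 genes. It was at 579, 496, 498 and 514 TPM in Control, 224, 212, 224, 272 and 226 TPM in WT bleomycin and 379.6, 384, 209 and 271 TPM in CB1R KO bleomycin libraries. No bleomycin library reached the Control range, and CB1R KO 8 and 9 exceeded all 5 WT bleomycin libraries. The fall in WT bleomycin was the largest of the members (log2 fold change -1.21, SE 0.14, adjusted p = 9e-06). Mlf1, a small protein abundant in ciliated cells, was at 19.4, 17.9, 16.6 and 21.7 TPM in Control, 15.8, 16.5, 14.2, 23.5 and 16.4 TPM in WT bleomycin and 13.4, 21.3, 16.8 and 15.8 TPM in CB1R KO bleomycin, with overlap between all groups (log2 fold change -0.16, SE 0.17, adjusted p = 0.451 in WT).

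The level summed over the 47 genes was 992 ± 44.6 TPM in Control (SD, n = 4), 653 ± 72.4 TPM in WT bleomycin (n = 5) and 688 ± 125 TPM in CB1R KO bleomycin (n = 4). Tppp3 made up much of this sum and most of its fall. Without Tppp3 the sums were 466, 473, 445 and 496 TPM in Control, 395, 392.01, 397, 508 and 412 TPM in WT bleomycin and 403, 425, 364 and 317 TPM in CB1R KO bleomycin libraries. The WT bleomycin mean was then 89.6% and the CB1R KO bleomycin mean 80.2% of Control. WT 4-B2 was the highest library of all, the other 4 WT libraries lay below the Control range, and so did the 4 CB1R KO libraries.

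**Figure D3:**
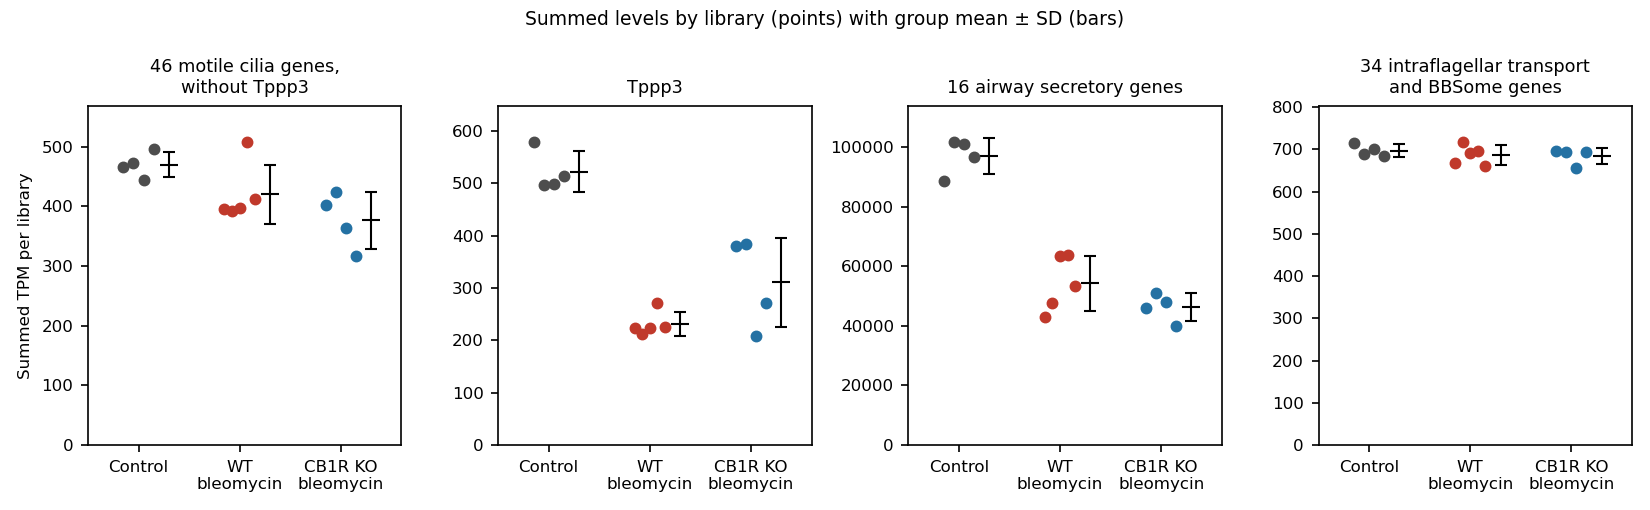
Summed TPM in each library (points) with group mean and SD (bars), on axes from 0, for the 46 motile cilia genes without Tppp3, for Tppp3, for 16 airway secretory genes and for 34 genes of intraflagellar transport and the BBSome. Tppp3 and the secretory genes are lower in every bleomycin library than in any Control library, the 46 cilia genes are lower in all bleomycin libraries but WT 4-B2, and the transport genes overlap between groups.

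Between CB1R KO and WT lungs, both given bleomycin, no motile cilia gene was called. In edgeR's quasi-likelihood test 0 of 47 passed, against 0.62% of all genes called lower and 0.359% called higher, and DESeq2 and limma also called 0. At an unadjusted p under 0.05, 8 members were lower and 1 was higher, against 9.08% and 7.95% of all genes. The median log2 fold change of the members was -0.15, against 0.00 over all genes, and it was -0.06 without WT 4-B2, -0.06 without CB1R KO 11 and -0.06 among libraries with titles in lower case only. The lowest unadjusted p-values belonged to Tppp3 (log2 fold change 0.39, SE 0.14, adjusted p = 0.183), Mcidas (log2 fold change -0.96, SE 0.36, adjusted p = 0.194) and Rsph1 (log2 fold change -0.35, SE 0.13, adjusted p = 0.201). Within 2 SE of the estimate, the difference for Mcidas could lie between -1.68 and -0.24 and that for Tppp3 between 0.11 and 0.67, intervals that run from small to large differences. For Tppp3, CB1R KO 10 was at 209 TPM, below every WT library, and without that library the difference passed (adjusted p = 0.0158 in edgeR's test). The other 44 members had log2 fold changes from -0.48 to 0.08, with Cfap126 at the lower end.

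Set beside Control, CB1R KO bleomycin lungs had more motile cilia genes past the threshold than WT bleomycin lungs did, but the 2 comparisons share their Control libraries and their difference is the CB1R KO against WT comparison above, which called none. In CB1R KO bleomycin against Control, 30 of 47 genes fell and 0 rose in edgeR's quasi-likelihood test, against 16.3% of all genes called lower and 19.0% called higher, with 36 lower and 0 higher at an unadjusted p under 0.05. The median log2 fold change was -0.45, against -0.01 over all genes. All 8 central apparatus genes fell, as did 4 of 5 genes inside the doublets, 2 of 3 spoke head genes, 6 of 10 ruler and link genes, 5 of 9 inner arm genes, 2 of 5 outer arm genes, Zmynd10, Rfx3 and Tppp3. Several of these calls depended on the setting. Of the central apparatus genes, Spag16 was called in 8, Cfap54 in 8 and Spag17 in 10 of 25 alternatives, and Cfap69 in 20, with a change above 0 in limma on TPM. Of the others, Cfap73 was called in 7 and Dnah3 in 11. The largest falls were those of Tppp3 (log2 fold change -0.82, SE 0.15, adjusted p = 0.000768) and Cfap65 (log2 fold change -0.78, SE 0.14, adjusted p = 0.000843). Next came Tekt2 (log2 fold change -0.69, SE 0.16, adjusted p = 0.00364) and Cfap74 (log2 fold change -0.67, SE 0.13, adjusted p = 0.00115). Mcidas and Ccno did not pass (log2 fold changes 0.52 and 0.44, SE 0.42 and 0.25), nor did Foxj1 (-0.17, SE 0.14). The count of 30 leaned on CB1R KO 11, the deepest library and the lowest in these genes: without it 10 members were called and the median was -0.33. It also fell to 16 without CB1R KO 10, to 15 without Control 26 and to 19 without Control 3, and it was 26 when counts of CB1R KO 11 were drawn down to the median total of CB1R KO 8, 9 and 10. Among the libraries with titles in lower case it was 24, with a median of -0.41. Over all genes, 5415 were called with every library, 4457 without CB1R KO 11 and 4272 without CB1R KO 10. Without Control 26 the calls over all genes numbered 4620, and without Control 3 they numbered 5035. They numbered 5275 with CB1R KO 11 drawn down and 4564 among libraries with titles in lower case.

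**Figure D4:**
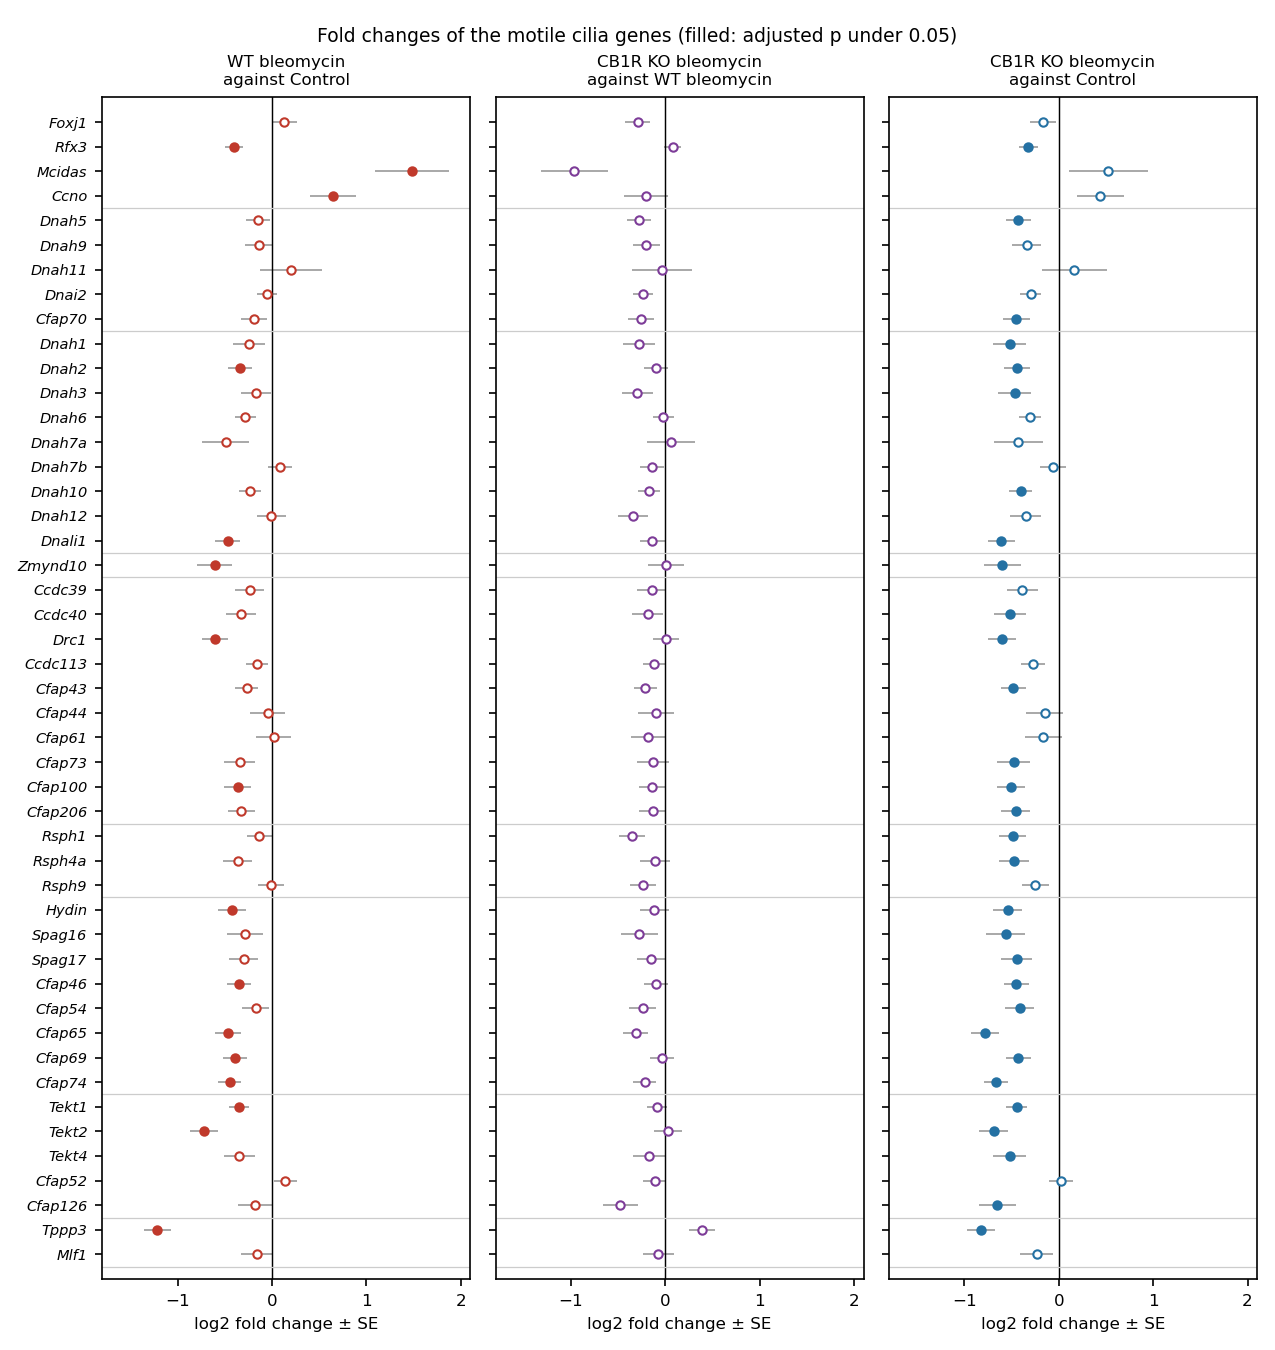
Log2 fold change and its standard error for each of the 47 genes in WT bleomycin against Control, CB1R KO bleomycin against WT bleomycin and CB1R KO bleomycin against Control, filled where the adjusted p is under 0.05. In the first panel 16 points are filled, 14 left and 2 right of 0, in the second none is filled, and in the third 30 are filled, all left of 0.

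Across the 13 libraries, most members varied together. The median over members of Pearson's r between a gene's log2 CPM and the mean of the other members was 0.84, and 36 of 47 members had r above 0.7. The points share treatment groups and scaling by library size, and these values are a description only. Within groups, after removal of group means, the median was 0.78. Ccdc40 (0.96), Cfap65 (0.95) and Ccdc113 (0.94) followed the rest most closely, whereas Ccno (-0.58) and Mcidas (-0.34) were the only members below 0. Foxj1 (0.62), Rfx3 (0.62) and Tppp3 (0.64) were intermediate. Outside the list, the 10 genes whose log2 CPM was most like the mean of the members were Odf3b, Ubxn10, Ak7, Mapk15, Ttll3, Cdhr3, Ccdc162, Cfap57, Lrrc74b and Spata18, with r from 0.98 to 0.95 over 13 libraries.

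Other genes of motile cilia, 104 tested of 110 listed, were counted the same way. In WT bleomycin against Control 27 fell and 4 rose (median log2 fold change -0.20). These are 26.0% and 3.85% of the genes tested, so the share that fell was near the 23.9% of all genes and the share that rose stood beside 25.0%. In CB1R KO against WT bleomycin 0 passed in edgeR's test, beside 0.62% of all genes lower and 0.359% higher. At an unadjusted p under 0.05, 13 of the 104 were lower and 1 higher, beside 9.08% and 7.95% of all genes. In CB1R KO bleomycin against Control 39 fell (37.5%, beside 16.3% of all genes) and 0 rose (beside 19.0%), with a median of -0.35. Their most abundant member, Sec14l3, a lipid transfer protein of ciliated cells, was at 885 ± 113 TPM in Control (SD, n = 4), 512 ± 39.9 TPM in WT bleomycin (n = 5) and 594 ± 169 TPM in CB1R KO bleomycin (n = 4). The next 3 by level, Ccdc153, Dynlrb2 and Tmem212, had log2 fold changes of -0.25, -0.30 and -0.24 in WT bleomycin and did not pass there. The 4 that rose in WT bleomycin were Foxn4, Deup1, Cdhr4 and Dnah17. Foxn4, a forkhead factor of multiciliated cells, was at 0.302, 0.373, 0.190 and 0.556 TPM in Control, 0.567, 0.999, 0.942, 0.806 and 0.519 TPM in WT bleomycin and 0.347, 0.563, 0.455 and 0.339 TPM in CB1R KO bleomycin libraries (log2 fold change 1.11 in WT, SE 0.30, adjusted p = 0.00737). Deup1, a scaffold of the deuterosomes on which centrioles are built, was at 2.00, 2.14, 1.40 and 1.82 TPM in Control, 1.99, 4.73, 2.89, 3.91 and 3.08 TPM in WT bleomycin and 2.32, 2.43, 1.83 and 1.78 TPM in CB1R KO bleomycin (log2 fold change 0.74 in WT, SE 0.21, adjusted p = 0.0109). Both sets of WT values overlapped with Control at their lower end, and neither gene passed in CB1R KO bleomycin against Control or against WT bleomycin. Not all early genes rose: with Mcidas, Ccno, Foxn4 and Deup1 higher in WT bleomycin, Gmnc (0.22, SE 0.25), Cdc20b (0.26, SE 0.25) and Ccdc78 (0.08, SE 0.23) did not pass, and Myb (-0.57, SE 0.11, adjusted p = 0.000532), Trp73 (-0.50, SE 0.17, adjusted p = 0.0261) and Rfx2 (-0.37, SE 0.13, adjusted p = 0.0311) fell. The 8 genes set beside Mcidas and Ccno here, all of commitment and centriole amplification, were put side by side after their values were seen.

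Genes of intraflagellar transport and the BBSome, which motile cilia share with the primary cilia of other cells, had a summed level of 697 ± 14.6 TPM in Control, 687 ± 23.0 TPM in WT bleomycin and 684 ± 18.6 TPM in CB1R KO bleomycin. Of these 34 genes, 11 fell (32.4%, beside 23.9% of all genes) and 3 rose (8.82%, beside 25.0%) in WT bleomycin against Control, with a median log2 fold change of -0.11. Between CB1R KO and WT 0 passed in edgeR's test, beside 0.62% of all genes lower and 0.359% higher. At an unadjusted p under 0.05, 4 of the 34 were lower and 1 higher, beside 9.08% and 7.95% of all genes. In CB1R KO bleomycin against Control 12 fell (35.3%, beside 16.3%) and 1 rose (2.94%, beside 19.0%), with a median of -0.20. The 3 that rose in WT were Kif3b, Arl6 and Ttc8. Of the most abundant, Ift43 fell in WT bleomycin (-0.38, SE 0.09), and Ift20, Arl3 and Ift46 did not pass.

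Other airway and lung cell types moved at the same time, and their part in the values above was not tested. The counts that follow stand beside 23.9% of all genes lower and 25.0% higher in WT bleomycin against Control, 0.62% and 0.359% between CB1R KO and WT, and 16.3% and 19.0% in CB1R KO bleomycin against Control. Of 16 genes of airway secretory cells, 7 fell and 4 rose in WT bleomycin against Control (median log2 fold change -0.46), among them the club cell genes Scgb1a1 (-0.84, SE 0.13), Cbr2 (-1.90, SE 0.18), Cyp2f2 (-1.40, SE 0.09) and Scgb3a2 (-0.48, SE 0.17). The 4 that rose, the same share as over all genes, were Hp, Reg3g, Muc5b and Muc5ac. Summed secretory TPM ranged from 88577 to 101823 in Control, 42984 to 63861 in WT bleomycin and 39975 to 51181 in CB1R KO bleomycin libraries, a list dominated by Scgb1a1. Between CB1R KO and WT, 2 secretory genes fell, Hp and Muc5ac, and in CB1R KO bleomycin against Control 7 fell and 0 rose. None of 6 airway basal genes was called in any comparison, with 3 higher in WT bleomycin and 1 higher in CB1R KO bleomycin against Control at an unadjusted p under 0.05 and 0 between CB1R KO and WT, and the defining markers Krt5, Krt14 and Trp63 had Control means under 1 TPM. In WT bleomycin against Control, 2 of 5 neuroendocrine and tuft genes tested fell and 2 rose, 6 of 10 type II and 4 of 8 type I alveolar genes fell, with 0 and 1 higher, and 7 of 8 endothelial genes fell and 1 rose. Pan-epithelial keratins and adhesion genes mostly rose (5 of 8, with 1 lower), as did fibroblast matrix (6 of 8) and macrophage (7 of 8) genes and 4 of 8 smooth muscle genes, with 1 smooth muscle gene lower. Adipocyte (4 of 6) and cardiac muscle (8 of 8) genes fell. Between CB1R KO and WT, type II genes (3 of 10 higher), smooth muscle (2 of 8 lower), fibroblast matrix (1 of 8 lower) and endothelial genes (1 of 8 higher) had calls, and the basal, neuroendocrine, type I, pan-epithelial, macrophage, adipocyte and cardiac lists had none in edgeR's test. At an unadjusted p under 0.05 between CB1R KO and WT, lower and higher genes numbered 1 and 1 in the neuroendocrine and tuft, 1 and 4 in the type I, 2 and 0 in the pan-epithelial, 2 and 1 in the macrophage, 0 and 4 in the adipocyte and 0 and 6 in the cardiac list. These unadjusted counts stand beside 9.08% of all genes lower and 7.95% higher. In CB1R KO bleomycin against Control, lower and higher calls numbered 1 and 1 for neuroendocrine and tuft, 0 and 2 for type II, 4 and 1 for type I, 0 and 2 for pan-epithelial, 0 and 5 for fibroblast matrix, 0 and 7 for macrophage, 6 and 1 for endothelial, 2 and 0 for smooth muscle, 0 and 0 for adipocyte and 2 and 0 for cardiac muscle genes.

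**Figure D5:**
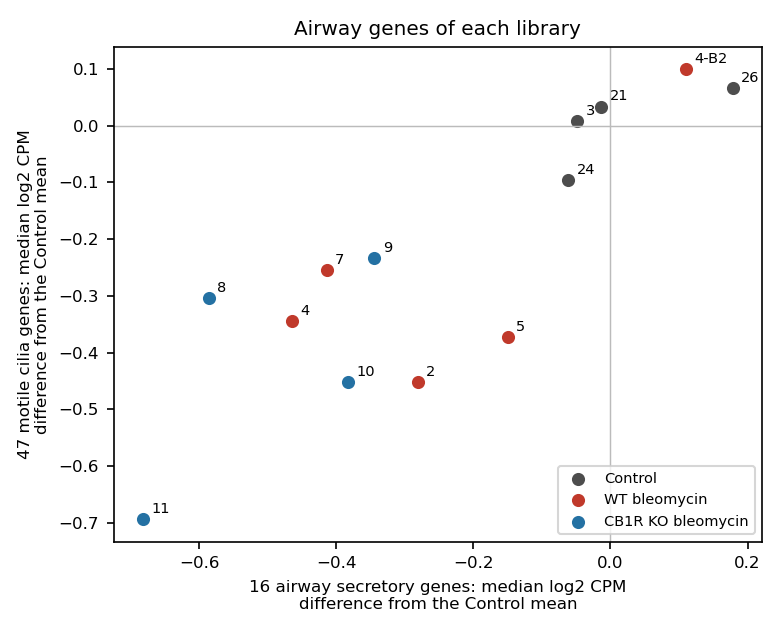
Median difference from the Control mean, in log2 CPM, over the 47 motile cilia genes (vertical) against that over 16 airway secretory genes (horizontal), 1 point for each of the 13 libraries, labelled by number. WT 4-B2 (0.10 and 0.11) sits with the Control libraries, and CB1R KO 11 (-0.69 and -0.68) is lowest on both axes.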

How the data were processed

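RNA of the lower right lung lobe was sequenced as 13 oligo(dT)-selected paired-end libraries, and the authors quantified reads with kallisto against an Ensembl mouse index (GRCm39). The authors deposited estimated counts and TPM values, with protein-coding transcripts added up by gene, for 20270 genes. The 13 single-sample files were not used, nor was 1 TPM column that matches no sample. Libraries were grouped by their labels.

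Counts were rounded and fitted with edgeR 4.0.16 (R 4.3.3): genes with low counts were removed by filterByExpr (15315 kept), libraries were scaled by TMM, and 1 coefficient per group was fitted to all 13 libraries. Pairs of groups were compared by the quasi-likelihood test with Benjamini-Hochberg adjustment over all genes tested and a threshold of 0.05. The standard error is the absolute log2 fold change divided by the square root of F. TPM values served for levels and for limma 3.58.1 on log2(TPM + 1). The 2 SE intervals and the SD cover the spread between libraries only. Depth, 14615904 to 53463884 estimated counts, limited the precision for genes of few counts such as Mcidas. Alternatives were DESeq2 1.42.0 with its own test and size factors, other filters and pseudocounts, a term for the style of library titles, thinning of CB1R KO 11 and the omission of each library, and, chosen after seeing the data, the omission of libraries from the summed level.

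Values in every library were given for the 2 members of each role group with the highest mean TPM, the 3 with the largest and the 3 with the smallest change in WT bleomycin against Control, and the 3 with the lowest p between CB1R KO and WT bleomycin. The 10 other genes most alike and up to 4 genes per other list with the highest mean TPM were also named. Ccno and other members and genes named because they were called were chosen after their values were seen. The members, the role groups and the lists (other motile cilia, intraflagellar transport and BBSome, airway secretory, basal, neuroendocrine and tuft, type II, type I, pan-epithelial, fibroblast matrix, macrophage, endothelial, smooth muscle, adipocyte and cardiac) were chosen with earlier results of these data known. Sharing of 31-base stretches was counted in GENCODE transcripts of another build (GRCm38).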

Additional observations from a re-analysis of the deposited data

Results flagged for a closer look

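Single libraries far from the rest of their group were found in 9 of 63 groups of 4 or 5 libraries examined for the summed level and the named members, where chance gives about 1 in 20 (Dixon's 95% critical value). The 63 groups are not separate trials, since members varied together, the sum holds the same genes and WT 4-B2 recurs. The count of 9 therefore does not measure an excess over chance. For WT 4-B2, the summed level of the 47 genes was 780.4 TPM, against 604.3 to 637.9 in the other WT bleomycin libraries. The same library had Foxj1 at 81.04 TPM (others 55.82 to 62.16), Dnali1 at 16.4 TPM (others 11.41 to 12.66) and Ccdc113 at 16.64 TPM (others 13.03 to 13.82). It also had Tppp3 at 272.0 TPM (others 212.2 to 226.2) and Mlf1 at 23.46 TPM (others 14.24 to 16.48). Cfap61 was at 10.26 TPM in WT 7 and at 3.009 to 4.969 in the other WT bleomycin libraries. Rfx3 was at 3.972 TPM in CB1R KO 8 and at 2.31 to 2.403 in the other CB1R KO libraries. Rsph9 was at 24.59 TPM in Control 26 and at 21.21 to 21.63 in the other Control libraries. These values are descriptions, and their causes were not tested.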

How the results depend on the processing

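Every median log2 fold change of the 47 genes kept its direction, from -0.34 to -0.16 in WT bleomycin against Control, from -0.23 to -0.06 between CB1R KO and WT bleomycin and from -0.50 to -0.29 in CB1R KO bleomycin against Control. The counts of members called moved more. In WT bleomycin against Control, 16 members became 10 under limma on log2(TPM + 1) and 10 on log2(TPM + 0.1), 21 with a term for title style, and 12 to 23 when single libraries were left out. In CB1R KO bleomycin against Control, 30 became 14 and 13 under limma with the pseudocounts 1 and 0.1, and 10 to 33 with single libraries left out. Over all genes, calls in WT bleomycin against Control numbered 7492. They numbered 6969 and 6952 under limma, 7477 with the title term and 6656 to 7753 with single libraries left out. In CB1R KO bleomycin against Control, 5415 of all genes became 5078 and 5062 under limma and 4272 to 5449 with single libraries left out. Between CB1R KO and WT bleomycin the count of members called was 0 to 1 with single libraries left out, the 1 being Tppp3 without CB1R KO 10, and 0 otherwise. Over all genes, calls in that comparison numbered 150, but 640 and 644 in DESeq2, 41 with a term for title style, 6 among libraries with titles in lower case, and from 1 (without CB1R KO 9) to 653 (without CB1R KO 10) with single libraries left out, so the shares of all genes given beside the members there are themselves unstable. Called in every alternative were 7 of the 16 members in the first comparison, Mcidas, Dnali1, Drc1, Cfap65, Tekt1, Tekt2 and Tppp3, and 9 of the 30 in CB1R KO bleomycin against Control. Directions reversed for Cfap69 in WT bleomycin against Control (0.0664 and 0.074 under limma with the pseudocounts 1 and 0.1) and in CB1R KO bleomycin against Control (0.2026 and 0.2206), and for Rfx3 in CB1R KO bleomycin against Control (0.0059 and 0.0002). The cause was not tested. The summed level in WT bleomycin was 65.8% of Control in TPM and 75.58% in CPM, and 62.58 to 67.02% with single libraries left out. In CB1R KO bleomycin it was 69.3% in TPM and 70.81% in CPM, and 65.28 to 73.2%. Mcidas was not tested where 10 counts were required in every library. No paired analysis was possible because the groups share no replicate numbers. With 4 or 5 libraries per group, differences smaller than about 2 SE of a gene could not be resolved. Larger ones could also miss the adjusted threshold, such as Mcidas between CB1R KO and WT bleomycin (-0.96, SE 0.36, adjusted p = 0.194 in edgeR's test). No CB1R KO library has a title in capitals, so title style could be compared within the Control and WT bleomycin groups only.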
